A study of Homo sapiens with 6 samples.

Results

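Cytosolic ribosomal protein genes are the set examined here: protein-coding autosomal genes whose symbol starts with RPL or RPS followed by a number, or is RPLP0, RPLP1, RPLP2 or RPSA, without RPS27L and the RPS6K kinases. This rule took 80 of 60617 gene IDs, 50 of the large and 30 of the small ribosomal subunit, and 78 of them were among the 16555 genes with enough signal to be tested. They were measured by mRNA sequencing in 6 libraries of the human melanoma line called 1205Lu in the labels. Untreated parental cells (TR Parental in the labels), sensitive to the drug and given only DMSO, contributed 2 libraries. The drug-resistant lines PBRT15 and PBRT16 contributed 2 libraries each and were kept in 500 nM PLX8394, an inhibitor of the kinase BRAF of the kind called a paradox breaker. Each PBRT line is 1 line grown out of a paradox breaker resistant tumor that formed in vivo from 1205Lu cells, and a PBRT library differs from a parental one in both line and drug, which cannot be told apart. Whether the paired libraries of each line were grown as separate cultures is stated nowhere in the sources at hand. A p-value therefore measures the spread between 2 libraries of a line, which may be technical.

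Ribosomal proteins coat the ribosomal RNAs of the small subunit, which reads the mRNA, and of the large subunit, which joins amino acids. One copy of nearly every protein is needed per ribosome, so their mRNAs are abundant and are usually kept at similar levels across conditions. Most of these mRNAs begin with a C followed by a run of pyrimidines, the 5′ terminal oligopyrimidine (TOP) tract, through which the kinase mTOR and the protein LARP1 control how much of the mRNA is translated. The genes themselves lie scattered over the genome.

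The TOP tract is shown first because many of the genes measured below share it at their annotated start. RefSeq (GRCh38.p14) promoter sequences, from 250 bases before to 50 bases after an annotated start, matched 63 of the 80 genes with 77 starts. Of these starts, 44 (57.1%) began with a C inside a run of at least 5 pyrimidines, against 4.07% of 35116 starts of all genes. The windows below run from 10 bases before the annotated start to 20 bases from it, 5′ to 3′, and capitals mark the unbroken run of C and T that begins at the start base. They are given for genes whose mRNA rose in PBRT15, for genes whose mRNA fell in PBRT15, for RPS27, which fell in PBRT16, and for RPL7L1, a relative of RPL7 whose annotated start has no such run.
RPLP1 (chr15:69452808-69452837, + strand): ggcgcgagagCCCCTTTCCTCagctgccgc
RPLP2 (chr11:809957-809986, + strand): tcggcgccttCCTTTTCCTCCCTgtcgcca
RPL13A (chr19:49487598-49487627, + strand): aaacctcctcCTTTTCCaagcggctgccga
RPL28 (chr19:55385922-55385951, + strand): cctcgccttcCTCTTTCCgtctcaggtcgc
RPS16 (chr19:39435930-39435959, - strand): ccctagctttCCTTTTCCggttgcggcgcc
RPL18 (chr19:48619159-48619188, - strand): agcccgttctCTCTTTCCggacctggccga
RPS3A (chr4:151099618-151099647, + strand): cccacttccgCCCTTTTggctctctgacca
RPL26 (chr17:8383174-8383203, - strand): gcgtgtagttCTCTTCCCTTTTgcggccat
RPS25 (chr11:119018324-119018353, - strand): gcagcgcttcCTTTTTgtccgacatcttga
RPS13 (chr11:17077648-17077677, - strand): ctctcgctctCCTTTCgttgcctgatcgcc
RPS27 (chr1:153990752-153990781, + strand): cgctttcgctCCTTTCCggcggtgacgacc
RPL7L1 (chr6:42879606-42879635, + strand): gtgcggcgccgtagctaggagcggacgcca
The tract was present on both sides of the results: 7 of 8 genes with a matched start that rose in PBRT15 began with it, as did 6 of 8 that fell and 31 of 46 that passed in neither direction. Among 3 short motifs searched on both strands of the whole 300-base sequences, CCGGAAG, bound by ETS factors such as GABPA, stood in 32.5% of the member starts and 10.3% of all starts. GGGCGG, the core of the SP1 box, stood in 51.9% and 45% of them, and AAGATGGC, part of the YY1 motif, in 9.09% and 2.89%. None of the 3 strings contains another.

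The ribosomal protein mRNAs took between 3.84% and 4.52% of each library. Summed over the 80 genes they made up 4.04% and 4.52% of the total normalised signal in the parental libraries, 3.84% and 4.08% in PBRT15 and 4.31% and 3.98% in PBRT16. The ranges of the 3 groups overlapped, and the group means differed by less than the 2 parental libraries did. With mitochondrially encoded genes left out of the total (4.31% and 4.81% in parental cells against 4% and 4.25% in PBRT15), or without the ribosomal protein genes of chromosome 19 (3.66% and 4.08% against 3.28% and 3.45%), both PBRT15 libraries lay below both parental ones. PBRT16 overlapped the parental libraries either way, with 4.51% and 4.17%, and 3.86% and 3.55%. The exclusion of chromosome 19 was chosen after seeing the data. It removes genes that were higher in PBRT15, so a lower remainder in PBRT15 is partly built in. The large subunit genes held 2.39% and 2.65%, 2.28% and 2.41%, and 2.56% and 2.37% in parental, PBRT15 and PBRT16 cells, in that order. With 2 libraries a group no exact permutation test can reach 0.05, and none was run. In bulk samples fewer cells of a type and less RNA per cell cannot be told apart.

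Of the 78 genes tested, 9 rose and 9 fell in PBRT15 against parental cells at a limma adjusted p of at most 0.05, which is 23.1% of them, when 41.1% of all tested genes passed, 21.6% by rising and 19.5% by falling. In PBRT16 against parental cells 4 rose and 2 fell, 7.69% of them, when 40.1% of all genes passed, 21.1% by rising and 19% by falling. PBRT16 against PBRT15 gave 0 rises and 4 falls, 5.13% of the genes, when 15.8% of all genes passed, 7.5% by rising and 8.28% by falling. Counting only whether the libraries of 2 groups overlapped, 24 genes were higher and 40 lower in both PBRT15 libraries than in both parental ones (37% and 37.9% of all genes), 22 higher and 25 lower in PBRT16 (37.7% and 38.4%), and 41 higher and 19 lower in PBRT16 than in PBRT15 (30.9% and 31.8%). At an unadjusted p under 0.05, limma gave 16 rises and 18 falls, 10 rises and 4 falls, and 7 rises and 11 falls in these comparisons, when 26.3% and 24.8%, 26.1% and 24.8%, and 16% and 16.9% of all genes rose and fell (51.1%, 50.9% and 32.9% in either direction). Pooling the spread along the expression level, with the same libraries, called 19 rises and 19 falls among the 78 genes in PBRT15. It called 11 and 6 in PBRT16, and 3 and 9 between the lines. Of all genes 46.6%, 46.5% and 23.1% were called, with 23.9% and 22.7%, 23.8% and 22.7%, and 11% and 12.1% rising and falling. The number of calls thus depends on how the spread is pooled. In PBRT15 the share of the 78 genes called was then no longer below that of all genes. In PBRT16 and between the lines it stayed below.

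The changes were small. Ribosomal protein genes changed by less than 1.5-fold in 69 of 78 cases in PBRT15 and 74 of 78 in PBRT16. A fold of at least 2 with an adjusted p of at most 0.05 was reached by 1 gene in PBRT15, RPLP1, and by 0 in PBRT16, when 23.6% and 23.1% of all genes met this. Between PBRT16 and PBRT15 it was reached by 0 genes, when 9.26% of all genes met it. The interquartile range of the log2 fold changes was 0.58 over the 78 genes and 0.866 over 10104 other well-expressed protein-coding genes in PBRT15, and 0.334 against 0.879 in PBRT16. Medians over the 78 genes were -0.14 in PBRT15, -0.04 in PBRT16 and 0.10 between PBRT16 and PBRT15, beside -0.01, 0.00 and 0.00 over all tested genes. Without parental replicate 2 the medians against parental cells were -0.04 in PBRT15 and 0.05 in PBRT16. Both comparisons with parental cells use the same 2 parental libraries.

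**Figure D1:**
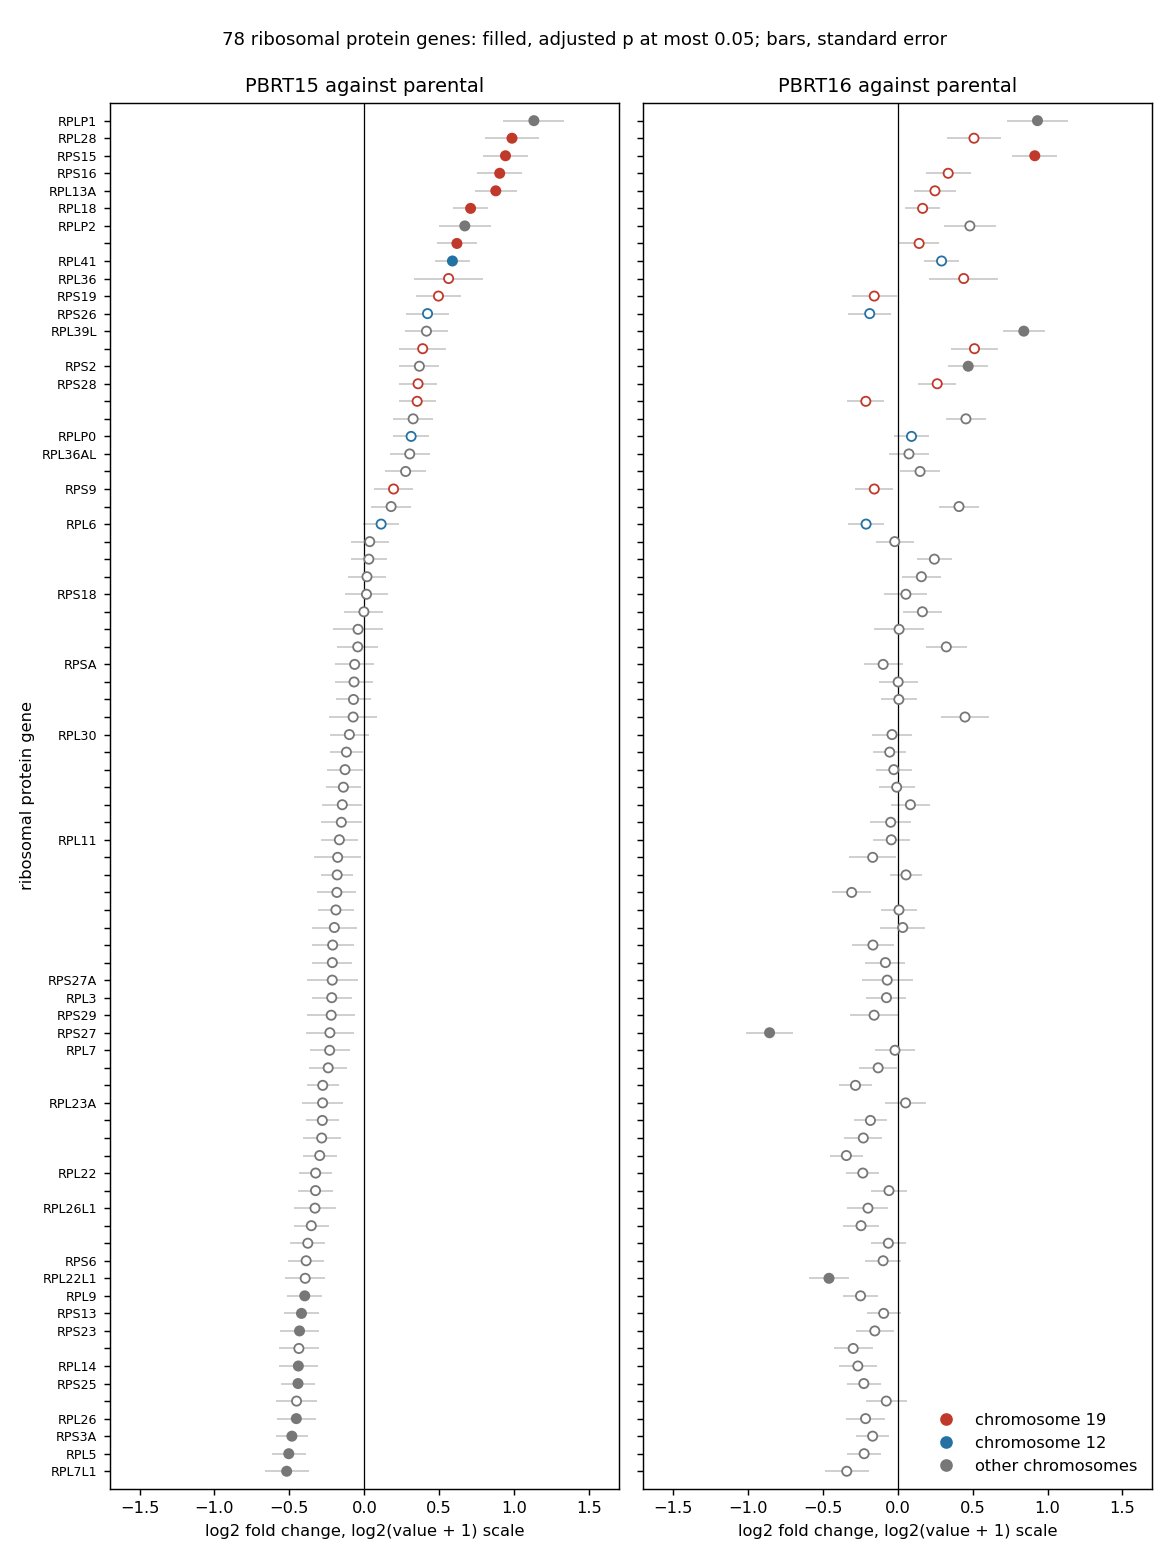
Log2 fold change of each of the 78 tested ribosomal protein genes (vertical axis, ordered by PBRT15) on the log2(value + 1) scale, in PBRT15 (left) and PBRT16 (right) against parental cells. Points show the fitted change, bars its standard error, filled points an adjusted p of at most 0.05 and colors the chromosome, and genes named in the text are labelled. In PBRT15 the chromosome 19 genes lie in the upper part with values from 0.20 to 0.99. Genes of other chromosomes lie among them, and RPLP1 is highest at 1.13. In PBRT16 only RPLP1, RPS15, RPL39L, RPS2, RPS27 and RPL22L1 are filled.

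The 2 genes that rose in both lines were RPLP1 and RPS15. RPLP1 is one of the acidic proteins of the stalk on the large subunit, the structure that recruits translation factors. Its normalised value was 5828 and 8466 in the parental libraries, 15113 and 15676 in PBRT15 and 13691 and 13132 in PBRT16. Every PBRT library lay above both parental ones, which differed from each other more than the libraries of either line did. Its log2 fold change, given here and below with its standard error, was 1.13 ± 0.20 in PBRT15 (limma adjusted p = 0.0122) and 0.93 ± 0.20 in PBRT16 (limma adjusted p = 0.0215). RPLP2, its partner in the stalk, had 3094 and 4140.0 in parental cells, 5712 and 5684 in PBRT15 cells and 5237 and 4770.1 in PBRT16 cells. RPLP2 rose in PBRT15 by 0.67 ± 0.18 (limma adjusted p = 0.0358), and its value in PBRT16 was 0.48 ± 0.18 (limma adjusted p = 0.0854). The call of RPLP2 in PBRT15 was lost in 5 of 6 fits with 1 library left out (limma adjusted p up to 0.117, log2 fold change 0.46 to 0.88). RPLP0, the base of the stalk and often a reference gene in quantitative PCR, had 35954 and 39912 in parental cells, 45635 and 48484 in PBRT15 cells and 40185 and 40577 in PBRT16 cells. No RPLP0 library of either line fell inside the parental range, yet RPLP0 passed in neither line, with 0.31 ± 0.12 (limma adjusted p = 0.0936) and 0.09 ± 0.12 (limma adjusted p = 0.566).

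RPS15, a small subunit protein near the decoding site, lies on the short arm side of chromosome 19. Its normalised value was 1611 and 1999 in parental cells, 3465 and 3433 in PBRT15 cells and 3526 and 3249 in PBRT16 cells, with no overlap between parental cells and either line. The log2 fold change was 0.94 ± 0.15 in PBRT15 (limma adjusted p = 0.00845) and 0.91 ± 0.15 in PBRT16 (limma adjusted p = 0.00924). The 25 well-expressed genes on each side of it had median log2 fold changes of 0.79 and 0.70 in the same comparisons. The rise of RPLP1 missed the threshold in PBRT15 without either PBRT15 library (limma adjusted p up to 0.0596) and in PBRT16 without either PBRT16 library (limma adjusted p up to 0.0909), and that of RPS15 in PBRT16 without PBRT16 replicate 1 (limma adjusted p = 0.0527). Around RPLP1, on chromosome 15, those medians were 0.18 and 0.21.

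**Figure D2:**
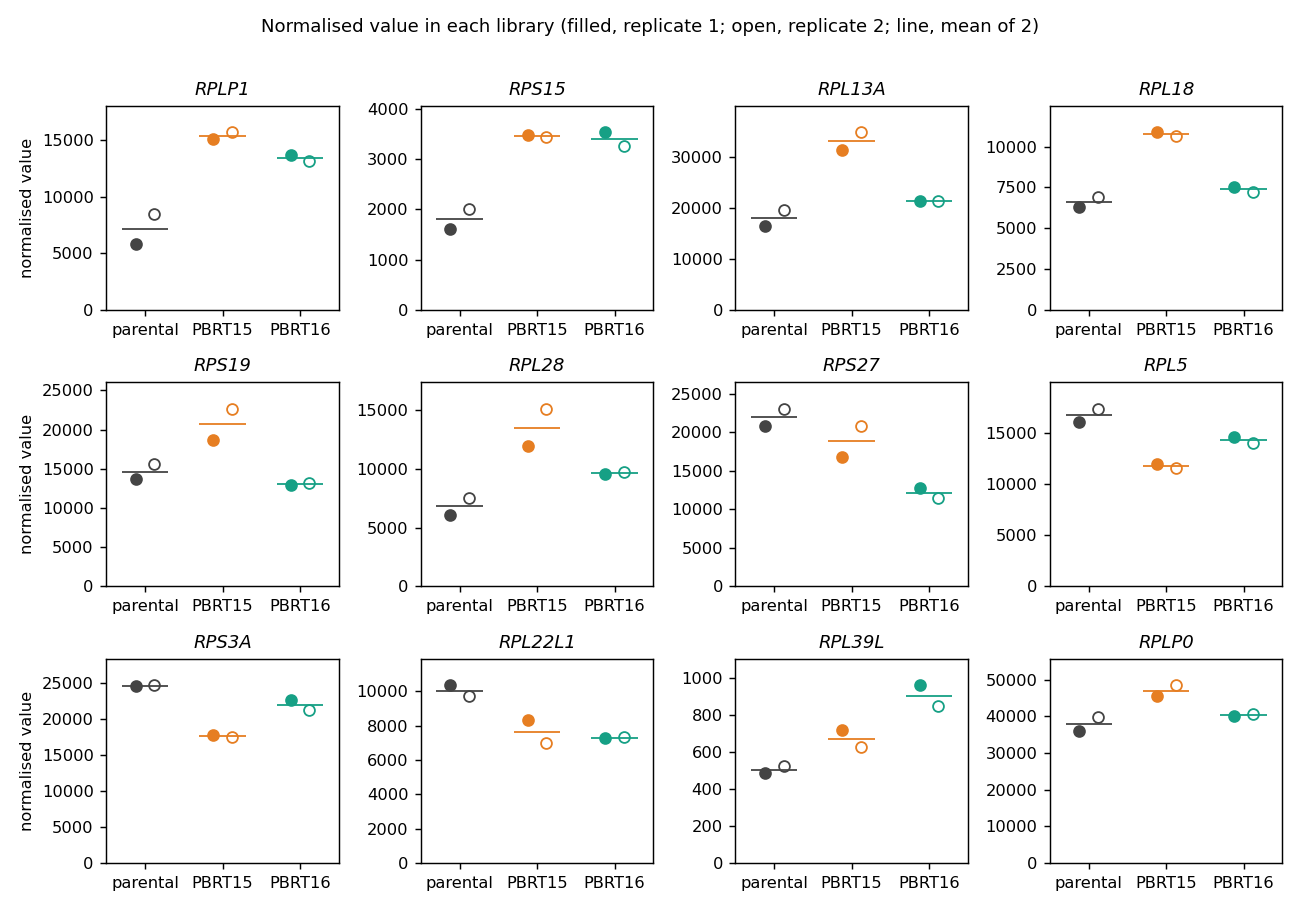
Normalised value (vertical axis, from 0) of 12 ribosomal protein genes in each of the 6 libraries, with parental cells in grey, PBRT15 in orange and PBRT16 in green. Filled and open points are replicates 1 and 2 and lines the mean of both: RPLP1 and RPS15 are high in both lines, RPL13A, RPL18, RPS19 and RPL28 in PBRT15, and RPS27 is lowest in PBRT16.

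The largest block of rises in PBRT15 lay on chromosome 19. This chromosome carries 12 of the 80 genes, 4 before and 8 after its gene-free gap at chr19:24163485-27638482 (GRCh38), and 6 of the 9 genes that rose in PBRT15 were among them. All 8 genes after the gap, on the long arm side, had both PBRT15 libraries above both parental ones, when 37% of all tested genes did, and 5 of them passed the test. RPL13A, a large subunit protein also known for a role in inflammatory translation control, had 16487 and 19495 in parental cells, 31230.3 and 34732 in PBRT15 cells and 21295 and 21308 in PBRT16 cells. PBRT15 stood apart while PBRT16 lay just above the parental values. The log2 fold change of RPL13A in PBRT15 was 0.88 ± 0.14 (limma adjusted p = 0.00845). RPL18 ran from 6273 and 6906 in parental cells to 10869 and 10655 in PBRT15 cells and 7539.6 and 7237 in PBRT16, which is 0.71 ± 0.12 on the log2 scale for PBRT15 (limma adjusted p = 0.00915). RPS16 had 6887 and 8424, 13445 and 15099.6 and 9611 and 9630.4 in the 3 lines in the same order, with 0.90 ± 0.15 in PBRT15 (limma adjusted p = 0.00963). RPL28 rose by 0.99 ± 0.18 (limma adjusted p = 0.0127). In both RPS16 and RPL28 the PBRT15 libraries were the highest of the 6. RPL13A, RPL18 and RPS16 kept their call whichever library was left out, while RPL28 lost it in 2 of 6 cases (limma adjusted p up to 0.0631).

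The other 3 genes after the gap did not pass in PBRT15. RPS19, a small subunit protein whose loss causes Diamond-Blackfan anemia, had 13669.9 and 15585 in parental cells, 18685 and 22638 in PBRT15 cells and 12970.4 and 13221 in PBRT16 cells, with 0.49 ± 0.15 in PBRT15 (limma adjusted p = 0.0529). RPS9 had 0.20 ± 0.13 (limma adjusted p = 0.275). In RPS19 and RPS9 both PBRT16 libraries lay below both parental libraries.

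The same 8 genes moved with the genes around them. Over them the log2 fold change had a median of 0.66 in PBRT15 against parental cells, 0.15 in PBRT16 against parental cells and -0.55 in PBRT16 against PBRT15. For the 546 other tested genes after the gap these medians were 0.59, 0.12 and -0.51, and 42.5% of them rose in PBRT15. The 4 ribosomal protein genes before the gap, RPS15, RPL36 and RPS28 among them, had medians of 0.48, 0.48 and -0.06, beside 0.25, 0.30 and -0.02 for 479 other genes there. The chromosome 19 genes together took 0.38% and 0.437% of the library total in parental cells, 0.557% and 0.627% in PBRT15 cells and 0.449% and 0.428% in PBRT16 cells. With the 12 genes set aside, 3 of 66 rose and 9 fell in PBRT15, when 21.6% of all tested genes rose and 19.5% fell. The median of the 66 was -0.19. Setting aside genes that were higher in PBRT15, after seeing them, lowers this median by construction.

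**Figure D3:**
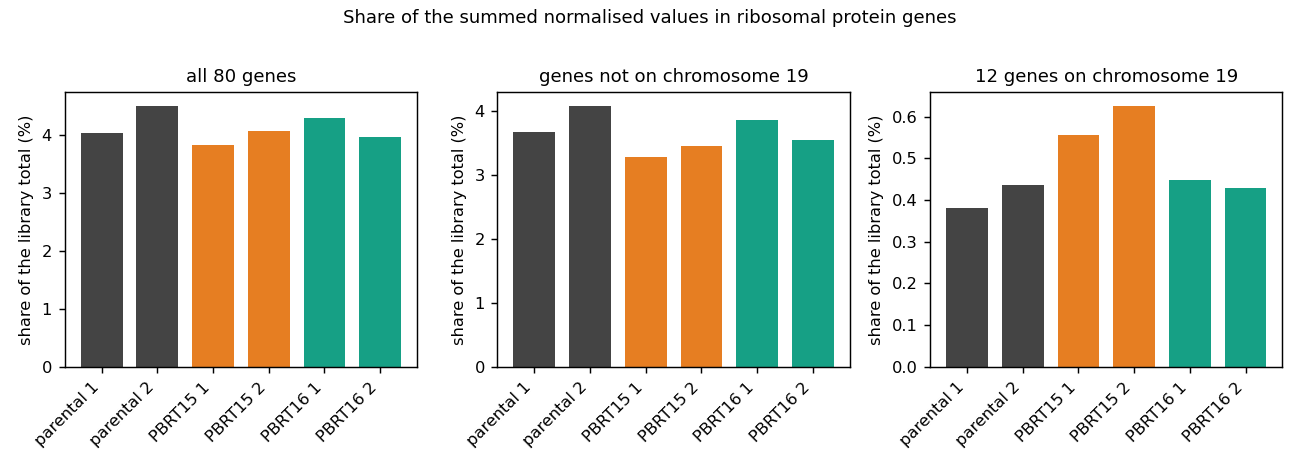
Share of the summed normalised values of each library (vertical axis, %, from 0) in all 80 ribosomal protein genes (left), in those not on chromosome 19 (middle) and in the 12 on chromosome 19 (right). Bars are single libraries, in grey for parental cells, orange for PBRT15 and green for PBRT16: the overall share lies between 3.84% and 4.52%, and the chromosome 19 share is highest in both PBRT15 libraries at 0.557% and 0.627%.

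Chromosome 12 showed a smaller shift of the same kind. RPL41, which encodes a very short peptide of the large subunit, had 7808 and 8627 in parental cells, 12126 and 12549.6 in PBRT15 cells and 10117 and 9991 in PBRT16 cells, and rose in PBRT15 by 0.59 ± 0.12 (limma adjusted p = 0.0158), a call lost in 3 of 6 fits with 1 library left out (limma adjusted p up to 0.0698). RPS26 had 0.42 ± 0.14 (limma adjusted p = 0.0694), RPLP0 the value given above and RPL6 0.11 ± 0.12 (limma adjusted p = 0.493). The median of the 4 genes was 0.37 in PBRT15, -0.05 in PBRT16 and -0.31 between PBRT16 and PBRT15, beside 0.49, -0.04 and -0.49 for 863 other tested genes of the chromosome.

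All 4 genes that fell in PBRT16 against PBRT15 lay after the gap on chromosome 19. Among them, RPS19 differed by -0.65 ± 0.15 (limma adjusted p = 0.0497), RPL13A by -0.63 ± 0.14 (limma adjusted p = 0.0451) and RPL18 by -0.54 ± 0.12 (limma adjusted p = 0.0415), all on the log2 scale. The genes around these had medians of -0.56, -0.59 and -0.57 in the same order. Every one of the 8 genes after the gap was lower in both PBRT16 libraries than in both PBRT15 libraries, when 31.8% of all tested genes were. All 4 calls were lost whichever of the 6 libraries was left out, with log2 differences from -0.79 to -0.46. Fewer of all tested genes passed in these fits too.

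RPS27 showed the largest fall of any tested ribosomal protein gene against parental cells. It encodes a zinc-finger protein of the small subunit and had 20844 and 23014 in parental cells, 16761 and 20813 in PBRT15 cells and 12756 and 11493 in PBRT16 cells. PBRT16 was the lowest line, with no overlap with the other libraries. The log2 fold change was -0.86 ± 0.16 in PBRT16 (limma adjusted p = 0.0136), and -0.23 ± 0.16 in PBRT15 (limma adjusted p = 0.298). On chromosome 1 the genes on both sides of RPS27 had a median of -0.51 in PBRT16 and -0.02 in PBRT15. Without either parental library or PBRT16 replicate 2 RPS27 missed the threshold in PBRT16 (limma adjusted p up to 0.0725, log2 fold change at most -0.78). PBRT16 against PBRT15 gave -0.63 ± 0.16 for RPS27 (limma adjusted p = 0.0618), beside -0.49 for those neighbours.

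Across the 78 genes, the log2 fold change followed the median of the neighbours with Pearson's r of 0.753 in PBRT15, 0.572 in PBRT16 and 0.857 between the lines. Over 10104 other well-expressed protein-coding genes r was 0.179, 0.149 and 0.24. Without the genes on chromosomes 12 and 19, r over the remaining 62 genes was 0.541, 0.539 and 0.6. Subtracting the neighbours' median lowered the standard deviation of the 78 log2 fold changes from 0.405 to 0.266, from 0.304 to 0.251 and from 0.274 to 0.142. These are descriptions across genes of the same libraries, and genes that lie close together share neighbours. Against parental cells RPLP1, RPL39L and RPL28 were among the genes that stood farthest above their neighbours in both lines.

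**Figure D4:**
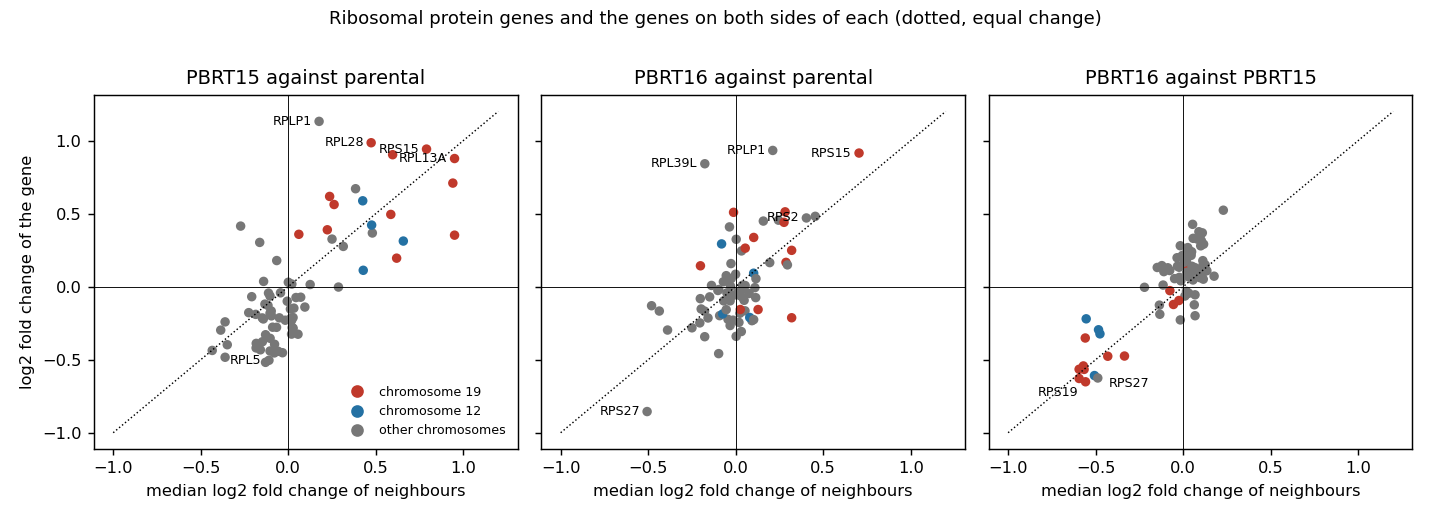
Log2 fold change of each of the 78 ribosomal protein genes (vertical axis) against the median log2 fold change of up to 25 well-expressed genes on each side (horizontal axis), in PBRT15 (left) and PBRT16 (middle) against parental cells and in PBRT16 against PBRT15 (right). Dotted lines mark equal change and colors the chromosome: between the lines the genes of chromosomes 12 and 19 after the gap and RPS27 sit low together with their neighbours.

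The 9 genes that fell in PBRT15 were RPL7L1, RPL5, RPS3A, RPL26, RPS25, RPL14, RPS23, RPS13 and RPL9, by 0.40 to 0.52 on the log2 scale. RPL5, which with RPL11 and 5S RNA forms the particle that can bind MDM2, had 16094 and 17390.4 in parental cells, 11954 and 11640.1 in PBRT15 cells and 14645 and 14011 in PBRT16 cells. PBRT15 was the lowest line and PBRT16 lay between. The log2 fold change of RPL5 was -0.50 ± 0.11 in PBRT15 (limma adjusted p = 0.0234) and -0.22 ± 0.11 in PBRT16 (limma adjusted p = 0.174). RPL11, its partner, had 18777 and 19986, 17024 and 17500.3 and 19980.2 and 17700.2 in the 3 lines, with -0.17 ± 0.12 in PBRT15 (limma adjusted p = 0.325). RPS3A had 24692 and 24748 in parental cells, 17764 and 17602 in PBRT15 cells and 22682 and 21364 in PBRT16 cells, a change of -0.48 ± 0.11 in PBRT15 (limma adjusted p = 0.0233). Its replicates differed little within each line, and PBRT16 again lay between. RPL26, RPS25, RPL14, RPS23, RPS13 and RPL9 fell by 0.40 to 0.45 in PBRT15, with limma adjusted p-values between 0.033 and 0.0499. In each of these 6 genes both PBRT15 libraries were the lowest of the 6 libraries. None of the 9 genes passed in PBRT16. The 9 calls did not hold when either parental library was left out, and most did not hold without a PBRT16 library. Fewer of all tested genes passed in these fits as well. With 1 library left out, the log2 fold changes of the 9 genes lay between -0.67 and -0.35. The calls were also lost with the libraries scaled to the median of the ribosomal protein genes, which evens out that median by construction.

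GC content moved with these differences. Log2 fold change and the GC content of the coding sequence had r of 0.679 over the 78 genes in PBRT15 and 0.51 in PBRT16, and 0.51 and 0.412 over the 66 genes not on chromosome 19. Over 13304 other protein-coding genes, whose log2 fold changes span a wider range, which lowers r, it was 0.125 and 0.0929. Split into 3 sets of 26 genes by GC content, the lowest (40.4% to 47.7%) had 0 genes that rose and 8 that fell in PBRT15, the middle set 1 and 1, and the highest (53.9% to 63%) 8 that rose and 0 that fell. Of the other protein-coding genes in these GC ranges, 15% rose and 23.2% fell in the lowest, 19.7% and 22.7% in the middle and 26.9% and 17.5% in the highest. The medians of the sets, from low to high GC content, were -0.28, -0.19 and 0.36 in PBRT15 and -0.10, -0.13 and 0.21 in PBRT16. For other protein-coding genes of the same GC ranges they were -0.15, -0.08 and 0.12 in PBRT15 and -0.14, -0.09 and 0.11 in PBRT16.

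Replicate libraries of a single group differed along the same axis. Parental replicate 2 exceeded replicate 1 for 76 of 78 ribosomal protein genes, by a median of 0.16 on the log2 scale, while the median over all genes was 0. That difference had r of 0.467 with GC content, beside 0.13 over the other protein-coding genes. In PBRT15 replicate 2 was higher for 45 genes and lower for 33, and in PBRT16 it was higher for 10 and lower for 68. RPL36 and RPLP1 were among the genes with the widest gap between the parental libraries. With each library's trend on coding length and GC content removed, 8 genes rose and 8 fell in PBRT15. Over the 78 genes r with GC content was then 0.455. RPL26, RPS23 and RPL9, listed above as falling, were not among these falls, and 6007 of 13382 of all genes passed. With the trend on whole transcripts removed, 3 fell, of which only RPL5 is listed above, and r was 0.408. The rises there were RPL13A, RPL18, RPL28, RPL36AL, RPL41, RPLP1, RPS15, RPS16 and RPS26, and 6389 of 16511 of all genes passed. In PBRT16 r went down to 0.186 and 0.106 under these removals. The part that GC content, chromosome and replicate differences each have in the changes was not tested.

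**Figure D5:**
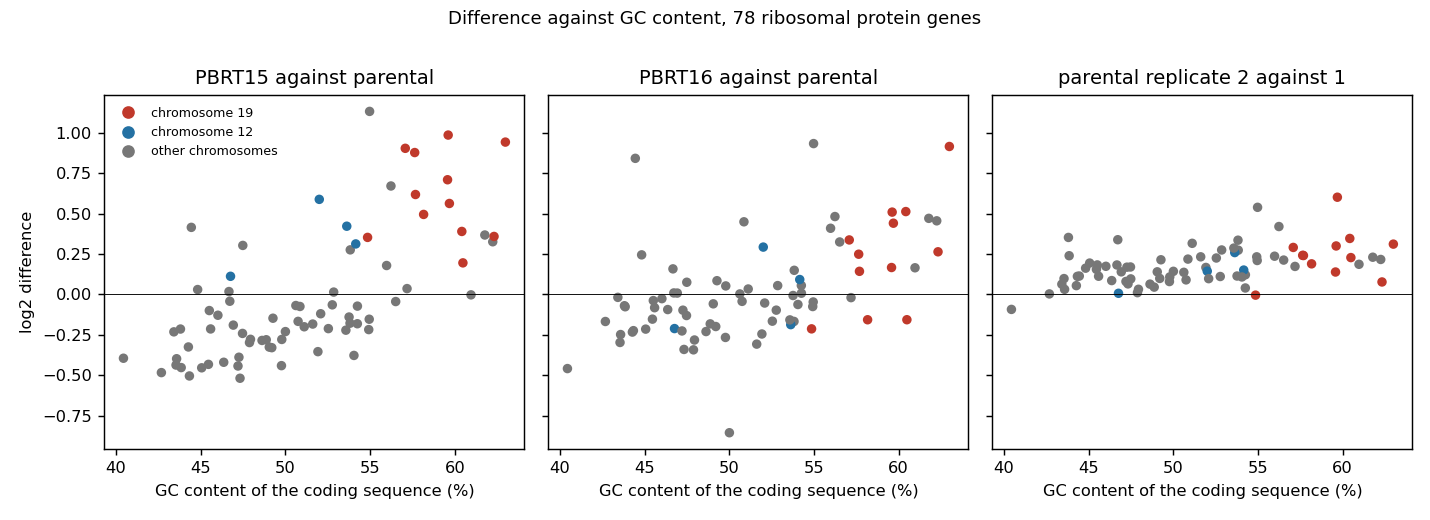
Log2 difference (vertical axis) of each of the 78 ribosomal protein genes against the GC content of its coding sequence in percent (horizontal axis), for PBRT15 and PBRT16 against parental cells and for parental replicate 2 against replicate 1. Points are genes, colored by chromosome: in PBRT15 values run from below 0 at low GC content to mostly above 0 at high GC content, and nearly all genes are above 0 between the parental replicates.

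In PBRT16 the remaining rises were RPL39L and RPS2. RPL39L, a paralog of the X-linked RPL39 best known from testis and cancer cells, had 485 and 524 in parental cells, 722 and 626 in PBRT15 cells and 962 and 849 in PBRT16 cells. The lines formed a series without overlap, with PBRT16 highest. The log2 fold change was 0.84 ± 0.14 in PBRT16 (limma adjusted p = 0.00999) and 0.41 ± 0.14 in PBRT15 (limma adjusted p = 0.0711), while its neighbours on chromosome 3 had medians of -0.18 and -0.27. RPL39L missed the threshold without parental replicate 1 or PBRT16 replicate 1 (limma adjusted p up to 0.0564). Its coding sequence has a GC content of 44.4%, in the set of lowest GC content, in which 0 genes rose in PBRT15. RPS2 had 15368 and 18026, 21752 and 21196 and 23973 and 22182 in the 3 lines, and 0.47 ± 0.13 in PBRT16 (limma adjusted p = 0.0451). The call of RPS2 was lost whichever library was left out. With the length and GC trend of whole transcripts removed, RPS2 had 0.13 in PBRT16 (limma adjusted p = 0.438). With that of coding sequences removed it had 0.18 (limma adjusted p = 0.278). Its neighbours had a median of 0.40 in PBRT16. The value is also uncertain because annotated RPS2 pseudogenes held a further 23.7% of the signal of RPS2 and could share its reads. Summed with them the values were 19324 and 22471 in parental cells, 26842 and 25981 in PBRT15 cells and 29558 and 27384 in PBRT16 cells.

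The paralogs differed in level. RPL22L1 stood at about the level of RPL22, with a ratio of the normalised values of 126% and 113% in parental cells, 122% and 106% in PBRT15 cells and 98.7% and 106% in PBRT16 cells. RPL22L1 fell in PBRT16, from 10361 and 9717 to 7288 and 7316, with -0.46 ± 0.13 (limma adjusted p = 0.0499), and had -0.39 ± 0.13 in PBRT15 (limma adjusted p = 0.0725). The call in PBRT16 was lost without either parental or either PBRT16 library (limma adjusted p up to 0.17). RPL22 itself had -0.32 ± 0.11 in PBRT15 (limma adjusted p = 0.0717) and -0.23 ± 0.11 in PBRT16 (limma adjusted p = 0.154). RPL7L1 fell in PBRT15, from 7120.5 and 7449.5 to 5663 and 4566, and was 5825 and 5683 in PBRT16, with -0.52 ± 0.15 in PBRT15 (limma adjusted p = 0.0438). RPL7 had -0.23 ± 0.13 (limma adjusted p = 0.221). RPL26L1 stayed between 3.34% and 3.91% of RPL26 in all 6 libraries. RPL36AL, a relative of the X-linked RPL36A, passed in neither line, with 0.30 and 0.08. RPL3L, the muscle form of RPL3, had normalised values from 0.954 to 6.11 and RPL10L, a testis form of RPL10, was listed at 0 in all 6 libraries, and neither was tested. RPL3 had -0.22 and -0.07.

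RPS6, RPSA, RPS27A and RPS29 passed in neither line. RPS6, the main target of S6 kinase, had 25974 and 29193 in parental cells, 20795 and 21286 in PBRT15 cells and 26623 and 24887 in PBRT16 cells. Both PBRT15 libraries were below the parental ones, with -0.39 ± 0.12 (limma adjusted p = 0.0583), and PBRT16 had -0.10 ± 0.12 (limma adjusted p = 0.556). RPSA, which doubles as a laminin receptor, had -0.06 and -0.10, RPS27A, made as a fusion with ubiquitin, -0.21 and -0.07, and RPS29 -0.22 and -0.16. For these 3 the libraries of at least 1 line overlapped the parental ones.

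Per kb of transcript, the highest levels in parental cells were those of RPS27 at 62299, RPS18 at 60723 and RPL30 at 48534 normalised units per kb. In PBRT16 cells RPS27 had 34445 per kb and RPS18 62814, and RPS18 had 61095 in PBRT15. RPS18 and RPL30 passed in neither line. The lowest of the tested genes were RPL39L at 773, RPL26L1 at 1170 and RPL14 at 1871 per kb. The annotated transcript of RPL14 used here is 7072 bases long, which lowers its value per kb. Annotated pseudogenes, 1474 in number for 73 of the genes, held 1.17% to 1.38% of the signal of the 80 genes, and over 5% of a gene's own signal only for RPS2 and RPL23A. RPL23A, at 58.7%, is therefore uncertain too.

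Cytosolic subunits left out by the rule are X-linked or named differently. Of 7 of them, 0 rose and 1 fell in PBRT15, with a median of -0.08, and 0 rose or fell in PBRT16, with a median of -0.04, beside the shares of all genes given above (21.6% and 19.5% in PBRT15, 21.1% and 19% in PBRT16). The gene that fell was RPS4X, at -0.50 (limma adjusted p = 0.0394). RACK1, a scaffold on the small subunit, had -0.03 and 0.03.

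The counts for other mRNAs with a TOP tract, regulators and assembly factors stand beside 41.1% of all genes called in PBRT15 and 40.1% in PBRT16. Of 18 translation factors and related genes, 2 rose and 3 fell in PBRT15 (median -0.11) and 1 rose and 3 fell in PBRT16 (median -0.22). EIF3E and EIF3L, subunits of an initiation factor, fell in both lines, with -0.62 and -0.44 for EIF3E and -0.47 and -0.51 for EIF3L. EEF1A1, an abundant elongation factor, had -0.03 and 0.08 and passed in neither. EIF4B, which lies on chromosome 12, rose in PBRT15, with 0.41 (limma adjusted p = 0.0496), and fell in PBRT16, with -0.50 (limma adjusted p = 0.0298). Among 13 RNAs that host small nucleolar RNAs, many of which also begin with a TOP tract, 1 rose and 6 fell in PBRT15 (median -0.32) and 1 rose and 5 fell in PBRT16 (median -0.28). GAS5 had 7317 and 7728 in parental cells, 4865 and 4826 in PBRT15 cells and 3326 and 3539 in PBRT16 cells, with -0.63 (limma adjusted p = 0.0114) and -1.13 (limma adjusted p = 0.00216). SNHG16 had -1.08 and -0.86 and SNHG32, which rose, 0.59 and 0.61.

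A further list joined regulators of ribosomal protein mRNA translation with the RPS6KA and RPS6KB kinase genes, not all of which have that role. Of its 18 tested genes, 1 rose and 7 fell in PBRT15 (median -0.04) and 2 rose and 6 fell in PBRT16 (median -0.17). LARP1 and MTOR passed in neither line, with -0.06 and -0.02 for LARP1 and -0.26 and -0.32 for MTOR. RPS6KA1, which encodes the ERK-dependent kinase RSK1 of the ribosomal protein S6, had 2109 and 2696 in parental cells, 235 and 316 in PBRT15 cells and 285 and 297 in PBRT16 cells. All 4 PBRT libraries were far below the parental ones, with -3.13 (limma adjusted p = 0.000734) and -3.03 (limma adjusted p = 0.000792). RPS6KA3 fell in both, with -1.30 and -1.50, and RPS6KA4 rose in both, with 1.08 and 1.22. EIF4EBP1, the inhibitor of cap-dependent initiation that mTOR switches off, fell, with -1.22 in PBRT15 (limma adjusted p = 0.00424) and -0.64 in PBRT16 (limma adjusted p = 0.0281).

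Chaperones and escorts that carry single ribosomal proteins into assembly gave 2 rises and 5 falls of 16 in PBRT15 (median -0.30) and 1 rise and 4 falls in PBRT16 (median -0.22). LTV1, an export factor of the small subunit, fell in both lines, with -0.67 and -0.83, as did BRIX1, a factor of large subunit assembly, with -0.53 and -0.66. GRWD1, a chaperone of RPL3 on chromosome 19 after the gap, rose in PBRT15 by 0.66 (limma adjusted p = 0.0445). SBDS, which releases EIF6 from the large subunit, rose in PBRT16 by 0.53 (limma adjusted p = 0.0237). Among 10 factors with motifs in ribosomal protein promoters, 1 rose and 3 fell in each line, with medians of -0.13 and -0.11. GABPA fell in both, with -0.47 and -0.67, and SP1, on chromosome 12, rose in PBRT15 by 0.64 (limma adjusted p = 0.0139) and had -0.28 in PBRT16 (limma adjusted p = 0.122).

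Values of the libraries as a whole stood beside these results as follows. Normalised signal summed to between 27877963 and 29580752 per library, and mitochondrial genes took 6.15% to 6.3% in parental cells against 4.09% to 4.53% in the lines. The number of reads is unknown. SOX10, the melanocyte lineage factor, had 4361 and 4103 in parental cells and at most 1.49 in the lines. S100B and MIA were high in parental cells too, at 10992 and 8075 and 4005 and 4307, and reached at most 1.67 and 38.2 in the lines. MITF, the melanocyte master regulator, went the other way, with 109 and 113 in parental cells, 823 and 927 in PBRT15 cells and 2209.5 and 2159 in PBRT16 cells. TYR was listed at 0 and PMEL, MLANA and DCT reached at most 29.4, and the 8 markers of this list summed to between 854 and 19493. The 8 fibroblast markers summed to 6941 and 6014 in parental cells, 75673 and 79699 in PBRT15 cells and 8870 and 10690.4 in PBRT16 cells. COL1A2 and THY1 reached at most 23.2 and 8.14 outside PBRT15, LUM did not exceed 4.12 anywhere and COL3A1 35.7. PDGFRB rose in both lines, from 161 and 273 to 3023 and 3557 in PBRT15 cells and 5447 and 6253 in PBRT16 cells, and so did DCN, to at most 111. PDGFRA had 6708 and 5673, 14242 and 14763 and 3324 and 4339 in the 3 lines, rising in PBRT15 and falling in PBRT16, as did FAP at up to 192. Endothelial markers summed to at most 35. Leukocyte markers summed to between 819 and 3125, nearly all of it CD68, a lysosomal protein, which had 819 and 1260.0 in parental cells, 2722 and 2194 in PBRT15 cells and 2146 and 3118 in PBRT16 cells and rose in both (limma adjusted p = 0.0273 and 0.0229), while PTPRC, CD3E, CD14 and LYZ did not exceed 5.17. Keratinocyte markers summed to between 292 and 365. The part of other cell types in the ribosomal protein values was not tested.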

How the data were processed

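Libraries were made by the authors with a stranded mRNA kit and quantified per gene with RSEM on GRCh38 and a GENCODE annotation, and lines were compared with DESeq2. STAR 2.6.1a and Picard stand in the submitters' processing notes as well. Each deposited file lists a normalized signal for 60617 gene IDs, and 45 pseudoautosomal copies were left out. The values are not whole counts: no single step per library turned more than 46.6% of the values below 12 into whole reads within 0.01. The authors' way of scaling the signal is not stated in the sources at hand, so the depth is unknown and no interval that needs it is given.

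IDs were matched without their version to GENCODE 44 (60357 matched), which differs from the release the authors used. Tested genes reached 10 (after scaling to the median library total) in 2 or more libraries, and 15 summed over libraries. The log2(value + 1) values of all 6 libraries were fitted as 3 groups in limma 3.58.1 (R 4.3.3), with 3 residual and 1.89 prior degrees of freedom and two-sided p-values adjusted by Benjamini-Hochberg over 16555 genes, and fold changes on this scale understate the change of low genes. An adjusted p of 0.05 or less counted as a rise or fall. The replicate numbers of the titles pair no samples by design, and no block was used. Neighbours were up to 25 other tested genes on each side with a mean of at least 0.0005% of the library total. Promoter sequences came from RefSeq (GRCh38.p14). Levels per kb used the shortest annotated transcript with the full coding sequence. Only the limma fit was tested on simulated data, with planted changes of at least 2-fold, larger than most ribosomal protein genes showed.

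Genes named are the largest rises and falls among the ribosomal protein genes that passed, the paralogs and their partners, those with known further roles, the 3 highest and lowest per kb, those not tested, and the 3 largest rises and falls of each related list. RPS9, RPS26, RPL6, RPL36, RPS28, RPL23A, RPS18, RACK1, EEF1A1, LARP1 and MTOR are named as well, picked once their values had been seen. Single values of some genes that met the rule are not reported here, and counts and medians include them. The members and lists were chosen with earlier results of these data known, so no list is independent evidence of its direction. Alternatives were other scalings, pseudocounts and filters, protein-coding genes only, 4 libraries in a fit, a replicate block, a prior spread with a trend, a fold threshold, removal of GC and length trends, and leaving out each library.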

Additional observations from a re-analysis of the deposited data

Results flagged for a closer look

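4 of the ribosomal protein genes changed differently in PBRT15 and PBRT16 by limma's test of the difference itself, which is 5.13% of those tested, when 15.8% of all genes passed and 8.28% fell. PBRT16 minus PBRT15 was -0.65 on the log2 scale for RPS19, -0.63 for RPL13A and -0.54 for RPL18, with limma adjusted p-values of 0.0497, 0.0451 and 0.0415. All 4 lie on chromosome 19 after its gene-free gap, where the other tested genes had a median difference of -0.51. In each of the genes both PBRT16 libraries were below both PBRT15 libraries. All 4 calls were lost whichever of the 6 libraries was left out, when fewer of all tested genes passed too.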

How the results depend on the processing

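Of the 28 calls of single ribosomal protein genes, 4 (RPL13A, RPL18, RPS15 and RPS16 in PBRT15) passed under all 20 settings tried for each, and 0 of the called values changed sign under any of them. Against parental cells, 9 genes fell in PBRT15 as reported. That count became 16 with scaling to the library total, 0 with scaling to the median of the ribosomal protein genes, 0 without a filter (29717 genes tested), 2 with only 4 libraries in the fit, 19 with a prior spread that has a trend, 3 with the transcript length and GC trend removed, and 0 with a fold of at least 2. The 9 rises in PBRT15 became 17 with scaling to the median of the ribosomal protein genes, 19 with the trended prior, 3 without the chromosome 19 genes and 1 with the fold threshold. In PBRT16 the 2 falls became 1 with median-of-ratios, upper-quartile or ribosomal-gene scaling, with a pseudocount of 0.5 or without a filter, 6 with the trended prior, 4 with the coding length and GC trend removed and 0 with the fold threshold. The 4 rises in PBRT16 became 10 with ribosomal-gene scaling, 2 without a filter, 11 with the trended prior and 0 with the fold threshold. Between PBRT16 and PBRT15 the 4 falls became 1 with library totals, 2 with upper-quartile or ribosomal-gene scaling, 0 without a filter, with 4 libraries, without chromosome 19 or with the fold threshold, 9 with the trended prior and 8 with the coding trend removed, and the 0 rises became 3 with the trended prior. Over all genes, 6796, 6641 and 2612 of 16555 passed as reported in PBRT15, in PBRT16 and between the lines. In the same order, 5092, 5083 and 1390 of 29717 passed without a filter and 5760, 6140 and 1344 with 4 libraries. Ribosomal-gene scaling gave 5893, 5868 and 2079, and library totals 6951, 6688 and 2569. With the transcript trend removed 6389, 6421 and 2783 of 16511 passed, and with the coding trend 6007, 5898 and 2791 of 13382. The genes behind a count can differ. The cause of these differences was not tested. Scaling to the median of the ribosomal protein genes shifted the median of all genes by 0.15 and 0.12 against parental cells. It turned the members' medians to 0.0131 in PBRT15 and 0.076 in PBRT16. This scaling makes the members' median value equal in all libraries, so medians near 0 are built in. Its counts are therefore no separate test of the members' direction.

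With 1 library left out, the falls in PBRT15 ranged from 0 to 2 and the rises from 4 to 10, the falls in PBRT16 from 0 to 2 and the rises from 0 to 5, and the falls between the lines were 0 throughout. The members' median ranged from -0.211 to -0.0408 in PBRT15 and from -0.126 to 0.0469 in PBRT16, both upper ends without parental replicate 2. With a replicate block the falls were 2 in PBRT15, 1 in PBRT16 and 0 between the lines, and the rises 8, 3 and 0. Of all 16555 genes, 6203, 6235 and 1846 passed with that block. The samples share only a number: deviations of same-numbered libraries correlated at 0.018, 0.0384 and 0.136. The removal of the coding trend and the exclusion of chromosome 19 or of genes with pseudogenes above 1% were added after seeing the data. Precision is limited by 2 libraries a group and an unknown depth.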

Other observations

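Mitochondrial ribosomal proteins, which build the separate ribosome of the mitochondrion, are encoded by 78 tested autosomal genes. Of these, 4 rose and 11 fell in PBRT15 (median -0.07) and 7 rose and 14 fell in PBRT16 (median -0.12), when 21.6% and 21.1% of all tested genes rose and 19.5% and 19% fell. MRPS6 had 5040.0 and 3886 in parental cells, 652 and 633 in PBRT15 cells and 938 and 848 in PBRT16 cells. It fell in both lines, with -2.78 (limma adjusted p = 0.000571) and -2.31 (limma adjusted p = 0.000928), and the parental libraries stood far above the other 4. MRPL39 fell in both lines too, with -1.28 and -0.89. MRPL41 rose in both, from 49.1 and 80.3 in parental cells to 153 and 180.1 in PBRT15 cells and 178 and 169 in PBRT16 cells. MRPS12, on chromosome 19 after the gap, had 269 and 357, 769.6 and 765 and 462 and 412 in the 3 lines and, like the 4 cytosolic genes there, fell in PBRT16 against PBRT15, with -0.81 (limma adjusted p = 0.0423). MRPL24, MRPL9 and MRPS14 on chromosome 1 fell in PBRT16, with -0.79, -0.70 and -0.48, and had -0.16, -0.26 and -0.06 in PBRT15, where they did not pass. Among others of the list on chromosome 1, MRPL55 also fell in PBRT16, with -0.64, while MRPL37 and MRPS15 had -0.02 and -0.02 there and did not pass. MRPL9, MRPL24, MRPS14, MRPL55, MRPL37 and MRPS15 were chosen after their values were seen.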
